A study of Mus musculus with 6 samples.

Results

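The 8 genes described here encode proteins by which a synaptic vesicle is held, primed and fused with the presynaptic membrane, or proteins of the vesicle itself. They are Snap25, Vamp1, Vamp2, Stx1a, Syt1, Syt2, Syp and Syn1. They were chosen by gene symbol from the 24411 genes listed in each library, and all 8 were among the 15303 genes that had enough reads to be tested. The RNA came from the sensory epithelium of the mouse cochlea at postnatal day 9, before the onset of hearing, and each library was made from 8 cochleae of 4 mice. There were 3 libraries from Kir2.1-OE mice and 3 from littermate controls, and the pooled mice of a library cannot be told apart. Kir2.1-OE mice carried 1 Otof rtTA allele and 1 tet-o-Kir2.1-IRES-tau-lacZ allele, so that doxycycline (DOX) induces Kir2.1, an inward rectifier K+ channel, where the Otof promoter is active, mainly in inner hair cells (IHCs). Controls carried the Otof rtTA allele without the Kir2.1 allele, and both groups drank water with 0.5 mg/ml DOX. Both mouse lines were kept on the C57BL/6N background, and mice of either sex were used.

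At a chemical synapse the vesicle SNARE protein VAMP pairs with SNAP25 and syntaxin of the plasma membrane, and the winding of these proteins around each other pulls the membranes together. Synaptotagmins sense the Ca2+ that enters through voltage-gated channels and trigger the last step, while synaptophysin and the synapsins sit on the vesicle and act in its make-up and in holding it in the reserve pool. Hair cells release glutamate at ribbon synapses with otoferlin as their Ca2+ sensor, and conventional release of the kind served by these 8 genes is known from neurons, among them the afferent neurons of the spiral ganglion and the efferent fibres that reach the hair cells.

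The libraries held between 35430940 and 41205047 assigned reads. Kcnj2, the gene for Kir2.1, had 3612, 3813 and 2213 normalized counts in the 3 Kir2.1-OE libraries and 235.8, 228.1 and 226.0 in the 3 control libraries, given throughout in the order of replicates 1 to 3, so each library followed its label. A normalized count is the number of reads assigned to a gene divided by the library's relative size. Hair cell markers were read in every library, with summed normalized counts of 4965 to 7718 for the 4 IHC markers and 23920 to 32842 for the 4 outer hair cell markers. The pools also held other tissue, since the 10 markers of Schwann cells and other glia summed to 285241 to 522924, the 4 of cartilage and bone to 286429 to 774065 and the 16 of neurons to 30144 to 81940. Xist, a transcript of female cells, had 873.8 normalized counts in Kir2.1-OE replicate 3, 574.3 in control replicate 2 and 373.6 in control replicate 3, and at most 1.03 in the other 3 libraries.

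RefSeq's promoter windows on GRCm38.p6, the assembly that mm10 names, held 8 start sites for 6 of the 8 genes, and no window was found for Snap25 and Vamp2. The 250 bases before each start were searched on both strands for the GC box GGGCGG, the cAMP response element TGACGTCA, the left arm TTCAGCACC and the right arm GGACAG of the RE1 element bound by the repressor REST, and the TATA box TATAAA. The windows of Syn1, Syt2 and Vamp1 are shown because these 3 passed as higher in Kir2.1-OE in every fit that left out a library, and that of Stx1a because its counts overlapped between the groups. Each runs from 5′ to 3′ on the strand of its gene and ends before the annotated gene, and capitals mark the motifs found.
Syn1 (chrX:20921005-20921168, minus strand): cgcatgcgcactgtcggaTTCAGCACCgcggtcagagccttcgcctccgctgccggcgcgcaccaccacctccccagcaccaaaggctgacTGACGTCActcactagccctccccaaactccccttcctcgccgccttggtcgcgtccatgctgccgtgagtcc
Syt2 (chr1:134646362-134646611, plus strand): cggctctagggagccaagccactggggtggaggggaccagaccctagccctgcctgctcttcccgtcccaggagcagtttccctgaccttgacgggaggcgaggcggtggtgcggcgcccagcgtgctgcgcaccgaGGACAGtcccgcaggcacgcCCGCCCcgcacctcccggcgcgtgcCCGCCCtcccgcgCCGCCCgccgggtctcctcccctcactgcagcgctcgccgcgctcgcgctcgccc
Vamp1 (chr6:125215331-125215550, plus strand): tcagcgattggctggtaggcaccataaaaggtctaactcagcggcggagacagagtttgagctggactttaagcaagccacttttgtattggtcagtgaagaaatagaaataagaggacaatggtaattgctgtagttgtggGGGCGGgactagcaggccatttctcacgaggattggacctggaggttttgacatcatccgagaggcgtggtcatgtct
Stx1a (chr5:135023232-135023481, plus strand): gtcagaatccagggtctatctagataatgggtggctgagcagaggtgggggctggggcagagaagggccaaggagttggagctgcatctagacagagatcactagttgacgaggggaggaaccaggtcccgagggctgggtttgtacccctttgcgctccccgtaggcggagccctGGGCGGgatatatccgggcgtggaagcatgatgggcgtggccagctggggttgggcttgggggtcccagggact

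In the Syn1 window the RE1 left arm lay 232 to 224 bases before the RefSeq start and the cAMP response element, which reads the same on both strands, 159 to 152 bases before it. These letters were found in 0.301% and 1.55% of the 32851 windows of 250 bases in the mouse annotation. Syt2 held 3 GC boxes on the minus strand of the gene and 1 RE1 right arm, whose letters occur in 32.7% and 18.7% of all windows. Vamp1 and Stx1a each held 1 GC box. Of the 250 bases before the start, 68.0% were G or C for Syn1 and 76.0% for Syt2, with 27 and 30 CpG sites, against a median of 52.4% and 6 CpG sites over all windows. Vamp1 had 50.4% and Stx1a 62.0%, each with 9 CpG sites. In the windows not shown, Syp had 56.4% with 11 CpG sites and the other start of Syt2 66.4% with 22. The starts of Syt1 had 56.4% with 8 and 42.8% with 5. The TATA box, found in 12.4% of all windows, was in none of the 8 windows of these genes. Of the windows not shown, Syp held 2 GC boxes, Syt1 held 1 GC box and 1 RE1 right arm at 1 start and no motif at the other, and the other start of Syt2 held 2 GC boxes and 2 RE1 right arms. Apart from the cAMP response element, no match overlapped another. A match of letters is a description and not a binding site.

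In the Kir2.1-OE pools 5 of the 8 genes were called higher (Snap25, Vamp1, Syt2, Syp and Syn1), 0 were called lower and 3 were not called (Vamp2, Stx1a and Syt1). A gene was called at a change of more than 1.5-fold and an adjusted p under 0.05, from the quasi-likelihood test of edgeR adjusted by Benjamini and Hochberg's method over the 15303 genes. By this rule 15.5% of all genes tested were called higher and 5.08% lower. The groups did not overlap for 6 of the 8 genes, all higher in Kir2.1-OE, as for 31.7% of all genes tested. The median log2 fold change was 0.96 over the 8 genes and 0.01 over all genes tested. P-values measure the spread between pools, and in bulk RNA fewer cells of a type and less RNA per cell cannot be told apart.

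**Figure D1:**
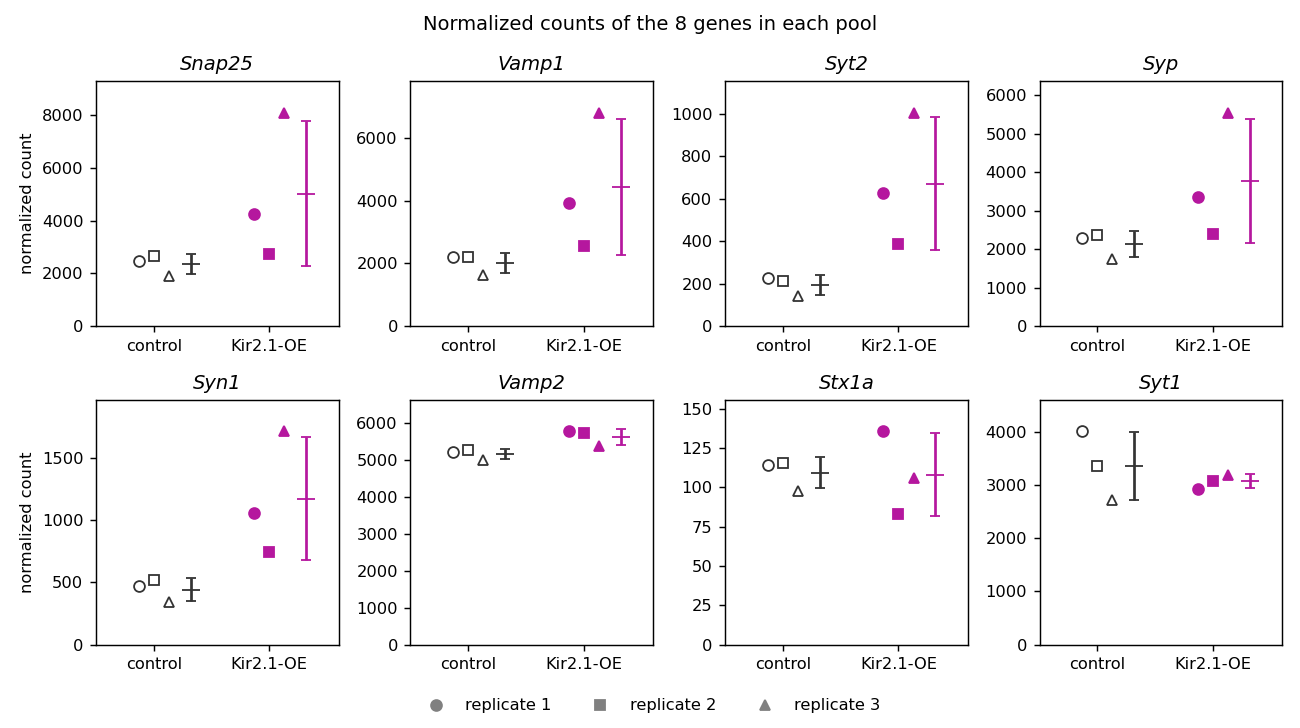
Normalized counts (y axis, from 0, a scale for each gene) of the 8 genes in the 3 control and 3 Kir2.1-OE pools, with 1 symbol per pool and the mean ± SD (n = 3) beside them. In the top row and for Syn1, Kir2.1-OE replicate 3 is the highest pool and control replicate 3 the lowest. For Vamp2, Stx1a and Syt1 control replicate 3 is the lowest control pool too, but Kir2.1-OE replicate 3 is not the highest pool.

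Snap25 (ENSMUSG00000027273.13, chr2:136713453-136782428 of mm10, plus strand) encodes the plasma membrane SNARE protein that pairs with syntaxin. It had 4254, 2742 and 8092 normalized counts in Kir2.1-OE and 2467, 2647 and 1917 in controls. The highest control pool lay just under the lowest Kir2.1-OE pool, and Kir2.1-OE replicate 3 stood far above the other pools. Means were 5029 ± 2758 and 2344 ± 380 (SD, n = 3), a log2 fold change of 1.10 (standard error 0.321, edgeR adjusted p = 0.0175). The call was lost without Kir2.1-OE replicate 3, where the log2 fold change was 0.56 (adjusted p = 0.0274, under the 1.5-fold limit), and without control replicate 3 (0.98, adjusted p = 0.0553).

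Vamp1 (ENSMUSG00000030337.16, chr6:125215551-125245964, plus strand) encodes synaptobrevin 1, the vesicle SNARE found in many fast-firing brainstem and spinal neurons. Its libraries held 3931, 2560 and 6803 normalized counts in Kir2.1-OE and 2190, 2201 and 1637 in controls. As for Snap25, every Kir2.1-OE pool was above every control pool and replicate 3 was the highest. The log2 fold change was 1.14 (standard error 0.292, edgeR adjusted p = 0.00969), and it stayed between 0.68 and 1.39 and past the threshold when each of the 6 libraries was left out.

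Vamp2 (ENSMUSG00000020894.16, chr11:69088490-69092384, plus strand) encodes synaptobrevin 2, the most widespread vesicle SNARE. It had 5770, 5721 and 5365 normalized counts in Kir2.1-OE and 5217, 5260 and 5006 in controls. These 6 values lay close together, and although the groups did not overlap (p = 0.10 by an exact two-sided permutation test, as low as 3 pools against 3 can go), the log2 fold change was only 0.12 (standard error 0.0666, edgeR adjusted p = 0.151). Kir2.1-OE replicate 3, the highest pool for Vamp1, was the lowest Kir2.1-OE pool for Vamp2.

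Stx1a (ENSMUSG00000007207.10, chr5:135023482-135051100, plus strand) encodes syntaxin 1A of the presynaptic membrane. It was the least read of the 8 genes, with 135.5, 82.9 and 105.8 normalized counts in Kir2.1-OE and 114.4, 115.4 and 97.7 in controls. The groups overlapped, with the lowest and the highest value both in Kir2.1-OE, and the log2 fold change was -0.02 (standard error 0.216, edgeR adjusted p = 0.958).

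Of the Ca2+ sensors, Syt1 (ENSMUSG00000035864.14, chr10:108497650-109010982, minus strand) encodes synaptotagmin 1, the fast sensor of most forebrain synapses. Syt1 had 2933, 3083 and 3196 normalized counts in Kir2.1-OE and 4012, 3367 and 2731 in controls. The 3 Kir2.1-OE pools lay between the control values, with a log2 fold change of -0.13 (standard error 0.122, edgeR adjusted p = 0.387). Syt2 (ENSMUSG00000026452.15, chr1:134646677-134762593, plus strand) encodes synaptotagmin 2, the fast sensor of hindbrain, auditory and neuromuscular synapses. Syt2 had 626.1, 384.7 and 1005 normalized counts in Kir2.1-OE and 227.7, 212.6 and 141.5 in controls. Every Kir2.1-OE pool exceeded every control pool by a wide margin. Its log2 fold change of 1.79 (standard error 0.318, 3.46-fold, edgeR adjusted p = 0.0016) was the highest of the 8 in this fit, above that of 99.3% of all genes tested, and it lay between 1.36 and 2.05 when each library was left out.

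Syp (ENSMUSG00000031144.15, chrX:7638471-7653256, plus strand) encodes synaptophysin, an abundant vesicle membrane protein that binds VAMP2. It had 3364, 2404 and 5544 normalized counts in Kir2.1-OE and 2281, 2359 and 1734 in controls. Kir2.1-OE replicate 2 was only just above control replicate 2, and the log2 fold change of 0.83 (standard error 0.256, edgeR adjusted p = 0.0229) was the smallest of the 5 called. It fell to 0.42 without Kir2.1-OE replicate 3 (adjusted p = 0.0488, under the 1.5-fold limit) and to 0.70 without control replicate 3 (adjusted p = 0.0716), so that the call was lost in both. Syn1 (ENSMUSG00000037217.15, chrX:20860511-20921004, minus strand) encodes synapsin 1, which tethers vesicles in the reserve pool. Its normalized counts were 1058, 744.5 and 1712 in Kir2.1-OE and 469.5, 515.2 and 337.9 in controls, with a clear gap between the groups. The log2 fold change was 1.41 (standard error 0.274, edgeR adjusted p = 0.00248) and lay between 1.01 and 1.63 when each library was left out.

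The 5 called genes shared their order over the pools. In each of them Kir2.1-OE replicate 3 was the highest, replicate 1 the next and replicate 2 the lowest of the Kir2.1-OE pools, and control replicate 3 was the lowest control pool. The order of the Kir2.1-OE pools was found in 0 of the 3 genes that were not called and in 16.6% of all genes tested. Control replicate 3 was the lowest control pool in all 3 genes that were not called too, and in 5112 of the 15303 genes tested. Within Kir2.1-OE the highest pool exceeded the lowest 2.30-fold to 2.95-fold in the called genes and 1.08-fold to 1.63-fold in Vamp2, Syt1 and Stx1a. Kir2.1-OE replicate 3, which had the highest counts of the called genes, was also the pool with the lowest Kcnj2 of its group and the Kir2.1-OE pool with 873.8 normalized counts of Xist against at most 1.03 in the other two, and the part of these differences in the result was not tested. With a term for Xist reads, an alternative chosen after seeing the data, the same 5 genes were called, and the X-linked Syp and Syn1 had log2 fold changes of 0.89 and 1.49.

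**Figure D2:**
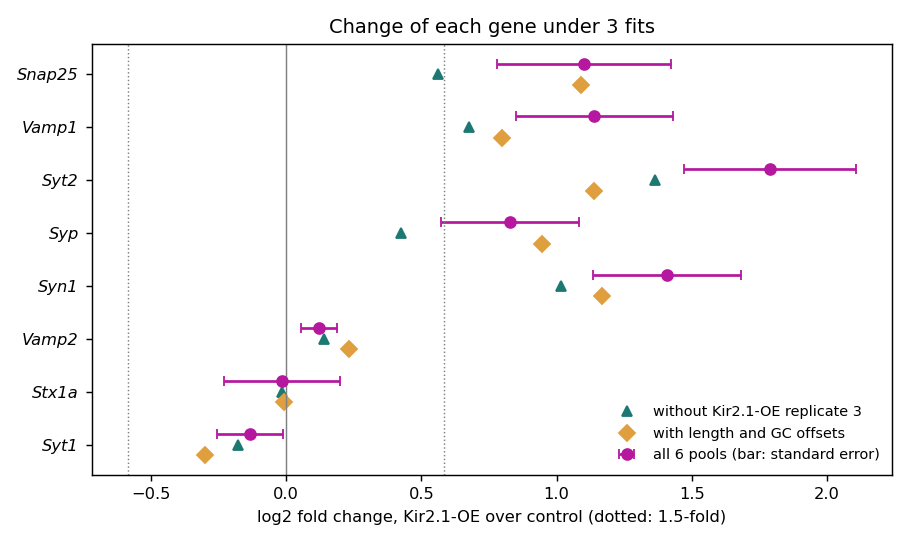
Log2 fold change of Kir2.1-OE over control (x axis) for the 8 genes from all 6 pools with its standard error, without Kir2.1-OE replicate 3, and with offsets for transcript length and GC content. Snap25 and Syp drop under the dotted 1.5-fold line without Kir2.1-OE replicate 3, and Syt2 drops from 1.79 to 1.14 with the offsets.

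A stricter test on the same fit set the null at a log2 change of 0.6 in either direction, by glmTreat of edgeR. Syt2 (adjusted p = 0.0223) and Syn1 (adjusted p = 0.0449) passed it, and 5.44% of all genes tested passed it upward. The fit was also repeated with offsets for each library's trend with transcript length and GC content, since uneven recovery along either can shift fold changes. With the offsets 6.45% of all genes were called higher, and the same 5 of the 8 genes remained called. Syt2, with the longest transcript of the 8 at 6879 nt, had a log2 fold change of 1.14 (adjusted p = 0.0216), and Vamp1, with 5709 nt, had 0.80 at the edge of the threshold (adjusted p = 0.0499). Snap25 was at 1.09, Syp at 0.95 and Syn1 at 1.17, so that Syn1 was the highest of the 8 in this fit. Vamp2 was at 0.23, with an adjusted p of 0.0253 but a change below 1.5-fold.

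Levels of different genes were compared as normalized counts per kilobase of the longest annotated transcript, which need not be the transcript that is read. In controls Vamp2 had the highest level per kilobase (2341 ± 61.7, SD, n = 3), followed by Syp (747 ± 120), Syt1 (699 ± 133), Snap25 (480 ± 78.0), Vamp1 (352 ± 56.5), Syn1 (135 ± 28.2), Stx1a (50.4 ± 4.58) and Syt2 (28.2 ± 6.70). Syp and Syt1 did not differ beyond their spread, since their pools overlapped, and the pools of every other pair of neighbours were apart. In Kir2.1-OE the levels of Syp (846 to 1950), Snap25 (562 to 1658), Vamp1 (449 to 1192) and Syt1 (609 to 663) overlapped, and Vamp2 remained above them at 2433 to 2617. Syt2 was below Stx1a in each control pool and above it in each Kir2.1-OE pool, where the ranges over pools of 55.9 to 146 and 38.3 to 62.5 overlapped. The order depends on the transcript taken. With the median annotated transcript, 463.5 nt for Syp, Syp was the next below Vamp2 in each control pool but above it in Kir2.1-OE replicates 1 and 3, and Syt2 was above Stx1a in every pool of both groups.

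Markers of neurons moved with these genes. Of the 16 neuron markers 9 were called higher, 1 lower and 6 not called, while 15.5% of all genes tested were called higher and 5.08% lower. The geometric mean of the 16 markers was 1682, 1145 and 2546 normalized counts in Kir2.1-OE and 953.9, 1064 and 697.0 in controls, 1.91-fold higher (exact permutation test, two-sided, p = 0.10). The 11 markers that are not neurofilament genes were 1.59-fold higher with overlapping groups (exact permutation p = 0.20). The order of the Kir2.1-OE pools seen in the 5 called genes was found in 14 of the 16 markers. Control replicate 3 was the lowest control pool in 14 of the 16, not all of them the same markers. The 3 most read markers did not move alike. Nefm and Nefl, for neurofilament proteins of large axons, had log2 fold changes of 1.94 (adjusted p = 0.0017) and 1.55 (adjusted p = 0.00217), and Uchl1, for a ubiquitin hydrolase of neurons, had -0.80 (adjusted p = 0.00122). Chat, a marker of cholinergic efferent fibres, was at 0 in all 6 libraries, which allows up to 8.47e-06% of the reads in the smallest library. That limit is for the Chat transcript, and the presence of efferent fibres in the pools was not tested. Of the other efferent markers Slc18a3 had 0 to 2 reads, and Slc5a7, the choline transporter, had 79.0 to 103 normalized counts in Kir2.1-OE and 90.6 to 151.5 in controls and was not called. The 10 Schwann cell and glia markers summed to 397347 to 522924 in Kir2.1-OE and 285241 to 358677 in controls, with 5 called higher and 1 lower. The 4 IHC markers, with 2 called higher, summed to 6434 to 7718 in Kir2.1-OE and 4965 to 5275 in controls. Otof, the most read of them, had a log2 fold change of 0.76, but -0.10 after the offsets. Slc17a8 (0.09) and Cabp2 (-0.13) were not called. The 4 cartilage and bone markers, with 2 called higher, summed to 642342 to 774065 and 286429 to 400153. Most of these reads were from Col2a1, with means of 574259 and 283892. Its log2 fold change was 1.02, and 0.32 after the offsets (edgeR adjusted p = 0.0558). Ibsp (0.59) and Bglap (0.67) were not called. With the offsets 1 of the 4 IHC markers and 1 of the 4 cartilage and bone markers were called higher, beside 6.45% of all genes. In that fit 8 of the 16 neuron markers and 5 of the 10 Schwann cell and glia markers were called higher. The part of these marker differences in the counts of the 8 genes was not tested.

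Set against the mean log2 count of the 16 neuron markers in its own pool, Snap25 overlapped between the groups, with 1.34, 1.26 and 1.67 above that mean in Kir2.1-OE and 1.37, 1.31 and 1.46 in controls, a difference of 0.04. Vamp1 overlapped too, with a difference of 0.11. Syn1 lay -0.67, -0.62 and -0.57 from the mean in Kir2.1-OE and -1.02, -1.05 and -1.04 in controls. The 3 pools of a group lay close together, and the difference between the groups was 0.42. Syt2 was higher by 0.78, from -2.23 ± 0.142 to -1.45 ± 0.118 (SD, n = 3). The difference was -0.97 for Stx1a, -1.05 for Syt1 and -0.18 for Syp, all without overlap of the groups, and -0.81 for Vamp2 with overlap. With the 11 markers that are not neurofilament genes as the base, Syp turned to 0.085 with overlap, Vamp1 was at 0.37 without overlap and Snap25 at 0.30 with overlap, while Stx1a, Syt1, Syt2 and Syn1 kept their directions without overlap. With 3 pools against 3 each difference without overlap from the 16 markers had p = 0.10 by the exact permutation test (two-sided), and 0.16 after Benjamini-Hochberg adjustment over the 8 genes, so none passed. These counts carried no length and GC offsets. The log2 fold changes without offsets were 1.79 for Syt2 and 1.41 for Syn1, beside a median of 0.93 over the 16 markers. With the offsets they were 1.14 and 1.17, beside a median of 0.98.

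**Figure D3:**
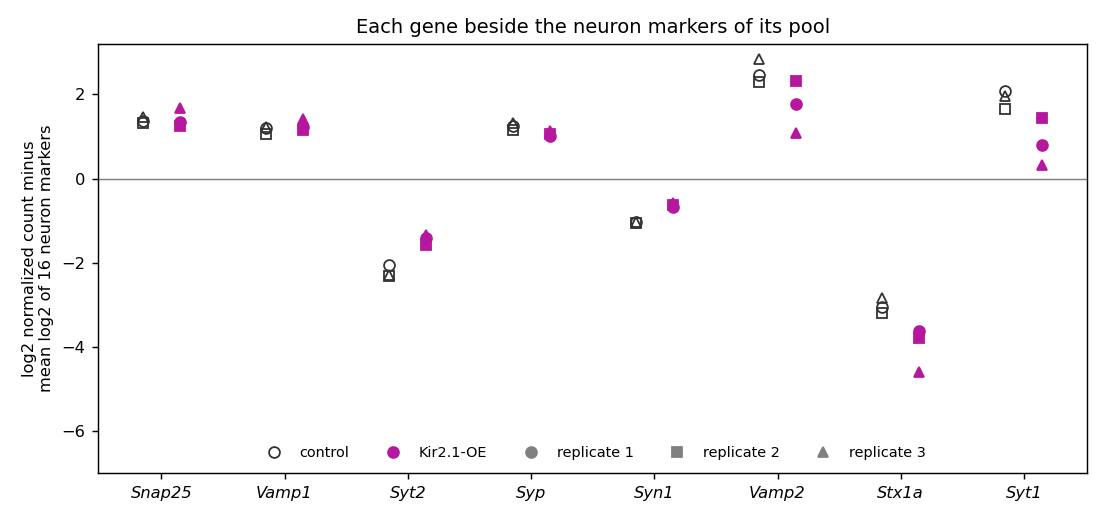
Log2 normalized count of each gene minus the mean log2 normalized count of the 16 neuron markers in the same pool (y axis, log2 units), with 1 symbol per pool and open symbols for controls. Snap25 and Vamp1 overlap between the groups, Syt2 and Syn1 are higher in Kir2.1-OE, and Stx1a and Syt1 are lower.

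Pairs of related genes were compared as the ratio of their counts within a pool, which does not depend on the scaling between libraries. A ratio can still carry a library's trend with transcript length and GC content, for which the counts were not corrected here. With the offsets the log2 fold changes were 1.14 for Syt2 and -0.30 for Syt1, against 1.79 and -0.13 without. Those of Vamp1 and Vamp2 were 0.80 and 0.23, against 1.14 and 0.12. The ratio of Syt2 to Syt1, the fast sensors that take each other's place between brain regions, was 0.213, 0.125 and 0.315 in Kir2.1-OE and 0.0568, 0.0631 and 0.0518 in controls, a log2 difference of 1.83. Vamp1 to Vamp2 gave 0.681, 0.448 and 1.27 against 0.420, 0.418 and 0.327, so that only Kir2.1-OE replicate 3 held more Vamp1 than Vamp2 reads. The log2 difference was 0.92, and 0.52 without that pool.

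Snap25 to Snap23, the form of most non-neuronal cells, was 3.02, 1.75 and 5.28 in Kir2.1-OE and 1.24, 1.53 and 0.926 in controls, a log2 difference of 1.33. Syn1 to Syn2 was 1.998, 2.08 and 2.28 against 1.44, 1.72 and 1.19, a log2 difference of 0.56. Each of these ratios was higher in every Kir2.1-OE pool than in every control pool (exact permutation test, two-sided, p = 0.10, and 0.14 after Benjamini-Hochberg adjustment over the 7 pairs tested, of which 6 are given). A pair of ratios among other genes of release overlapped between the groups. Cplx1 to Cplx2, the complexins that clamp and promote fusion, differed by 0.70 on the log2 scale (exact permutation p = 0.30), but by 0.26 without Kir2.1-OE replicate 3, and Slc17a7 to Slc17a6, the vesicular glutamate transporters, by 0.04 (exact permutation p = 0.80).

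**Figure D4:**
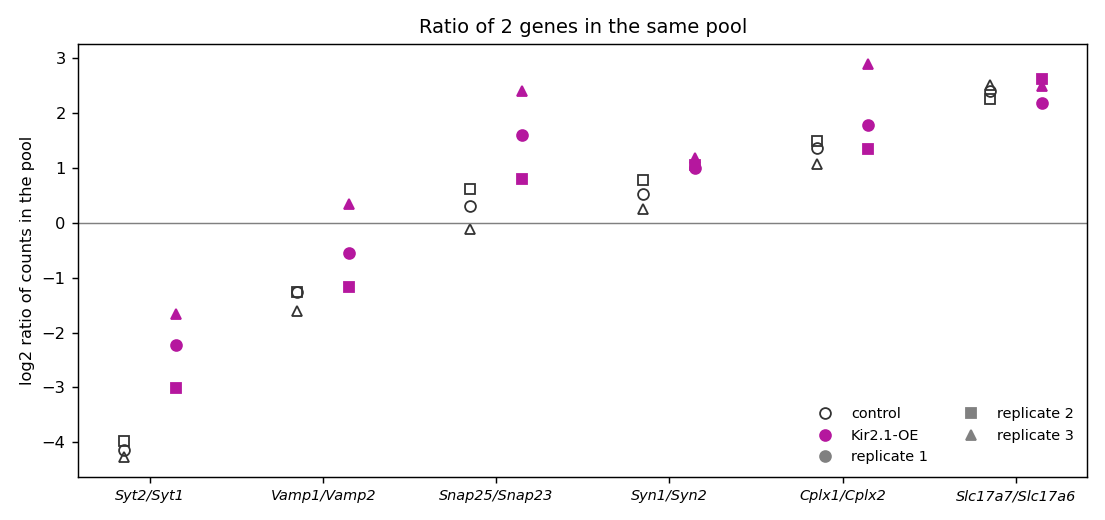
Log2 ratio of the counts of 2 genes in the same pool (y axis) for 6 pairs, with 1 symbol per pool and open symbols for controls. The Syt2/Syt1, Vamp1/Vamp2, Snap25/Snap23 and Syn1/Syn2 ratios are higher in every Kir2.1-OE pool than in every control pool, and the other pairs overlap.

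The 8 genes were set beside 6 lists of other genes of the vesicle cycle, of which 103 genes were tested. Of these 42 (40.8%) were called higher and 1 lower, with a median log2 fold change of 0.37. With the length and GC offsets 24 were called higher and 1 lower. Over all genes tested the share called higher was 15.5%, and 6.45% with the offsets. Among 10 other SNARE genes 1 (10%) was called higher and the median was -0.23. The ubiquitous SNARE genes of the list that were most read, Vamp8 (-0.52), Vamp3 (-0.36) and Snap47 (-0.21), were not called, and 7 of the 10 genes were lower in every Kir2.1-OE pool than in every control pool, as were 29.9% of all genes tested. Of 14 other synaptotagmin, Doc2 and otoferlin genes 5 (35.7%) were called higher. They were Syt7 with a log2 fold change of 1.76, Syt3 with 0.85, Syt12 with 0.83, Otof with 0.76 and Doc2b with 0.76. With the offsets 2 of the 14 were called higher and 1 lower. Otof, the sensor of the IHC itself, was -0.10 with the offsets (adjusted p = 0.499), and Syt7, the slow sensor of asynchronous release, remained called at 1.05.

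Of 18 genes that assemble and prime SNARE complexes 10 (55.6%) were called higher and 0 lower, beside 15.5% of all genes called higher. Unc13a, for the vesicle priming protein Munc13-1, had a log2 fold change of 1.91, Cplx1 had 1.41 and Cadps, for the priming protein CAPS, had 1.37. With the offsets 6 of the 18 were called, Unc13a at 1.01 and Cplx1 at 1.45 among them, and Cadps was not (0.85, adjusted p = 0.076). The active zone list had 13 of 18 (72.2%) called higher and 0 lower and a median of 1.02. Its highest were Bsn (1.90, bassoon), Rims1 (1.90) and Pclo (1.90, piccolo), which had between 80.1 and 405 normalized counts on average in Kir2.1-OE. With the offsets 8 of the 18 were called higher, among them Bsn at 0.75, Rims1 at 1.44 and Pclo at 1.26. Of 20 other vesicle proteins and transporters 7 (35%) were called higher, among them Sv2c (1.52), Syn3 (1.47) and Sv2a (1.12), and 1 was called lower. Without Kir2.1-OE replicate 3, or without control replicate 3, 5 of these 20 were called in either direction in place of 8. Of 23 endocytosis genes 6 (26.1%) were called higher, Itsn2 (1.20), Ston2 (1.16) and Synj1 (1.06) the most, beside 15.5% of all genes tested. With the offsets 1 of the 23, Itsn2 (0.79), was called higher, beside 6.45% of all genes. Ston2 (0.53) and Synj1 (0.55) were not called in that fit. The 3 most read genes of that list, Hspa8, Cltc and Ap2m1, were not called.

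**Figure D5:**
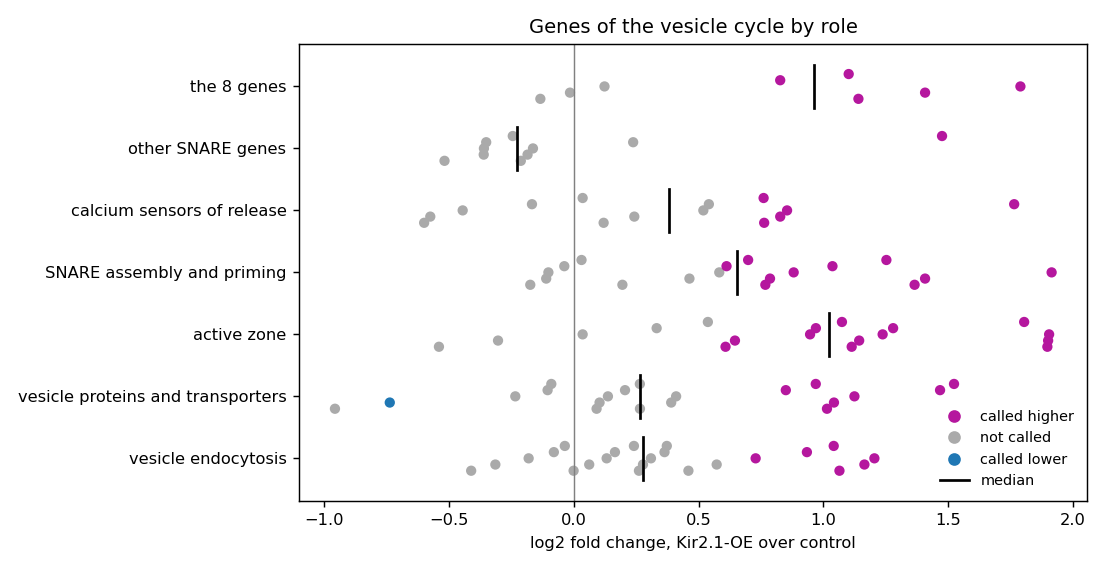
Log2 fold change of Kir2.1-OE over control (x axis) for each gene tested, by list, with called genes in colour and a bar at the list's median. The median is 0.96 for the 8 genes, 1.02 for the active zone list and -0.23 for the other SNARE genes.

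Of the 12727 other genes that averaged 100 normalized counts or more, those whose pattern over the 6 libraries lay nearest to Snap25 were Sncb, Thy1, Slc17a7, Ache and Cpne6. The distance, between log2 counts centred on each gene's mean, was 0.148 to 0.227, against a median of 1.69 over all candidates. Nearest to Vamp1 were Cpne6, Ndrg4, Slc6a17, Lhfpl3 and Slc17a7 at 0.144 to 0.214. Nearest to Syt2 were Scn4b, Scrt1, Atp2b3, Grin1 and Ina at 0.281 to 0.333, against a median of 2.40. Snap25 and Vamp1 were 0.159 apart, while Snap25 was 1.601 from Vamp2, 1.61 from Stx1a and 1.73 from Syt1.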

How the data were processed

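RNA was measured in 6 libraries, 3 of Kir2.1-OE and 3 of control mice, numbered as the labels give them; the header of control replicate 1 carries the number 4. The authors enriched poly(A) RNA, mapped the reads to mm10 with the NextFlow RNA pipeline and estimated reads per gene with Salmon; their gene annotation and tool versions are not given in the sources used here. The authors deposited expected counts per gene symbol, not scaled for length or depth. Of all values 6.95% were not whole. The authors' workbook of comparisons was not used.

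The counts were rounded and tested in edgeR 4.0.16 (limma 3.58.1, R 4.3.3) with filterByExpr, TMM scaling (factors 0.984 to 1.01), the quasi-likelihood test, and p-values adjusted by Benjamini-Hochberg over 15303 genes. Genes were called at an adjusted p under 0.05 and a fold change above 1.5. With 3 pools against 3, exact permutation tests cannot go below 0.10. The mice came from several cages and breeding pairs, and p-values measure the spread between pools. No 2 libraries of a group were alike within sampling noise (chi-square per degree of freedom 15.7 to 31.1). On simulated data the fit called 172 of 196 changed genes tested and 8 unchanged genes of 15204 genes in all. Of the 24411 symbols, 23376 matched GENCODE vM21 by symbol and 651 by an older symbol, and 384 were not matched. Offsets were each library's loess trend (span 0.4) with length and GC content of the longest transcript.

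The 8 genes, the lists and the rule for named genes were chosen with earlier results of these data known. The rule names every one of the 8 genes, the paired genes, Kcnj2, Xist and Rest, the 3 most read genes and the 3 highest and 3 lowest called genes of each vesicle cycle list, the 3 most read genes of each marker list with any at 0 in all libraries, and the 5 genes nearest to Snap25, Syt2 and Vamp1 over the 6 libraries. Alternatives were other scalings and filters, the offsets, a block for the replicate number, each library left out, DESeq2 1.42.0, limma-voom, glmTreat, no fold limit and unrounded counts. Reads of near-identical genes may be divided among them by the estimate, and no strand setting is stated. Some genes of the lists and 1 of the 7 pairs are not reported here. The limit for a count of 0 is 3 counts and covers counting error only.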

Additional observations from a re-analysis of the deposited data

How the results depend on the processing

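Over the 6 fits that each left out a library, 3 to 5 of the 8 genes were called, 3 of them (Vamp1, Syt2 and Syn1) in every fit, and 2 were called by glmTreat. DESeq2's Wald test called 4, without Syp (adjusted p = 0.0583). Scaling by size factors, by upper quartile or by library size, the count filters, limma-voom and unrounded counts called the same 5. Upper quartile scaling moved the median of all genes by -0.09 and the share of calls that were higher from 75.2% to 57.9%. Of all genes 3143 were called, 1507 with the length and GC offsets, 1242 with the offsets and the replicate block, 7774 with no fold limit and 889 with glmTreat. For the wider lists the calls went from 43 to 25, 17, 68 and 19 under the same 4 settings. The cause was not tested.

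The replicate numbers did not pair the pools, since the deviations of pools with the same number correlated at -0.11, -0.23 and -0.21. The number of control replicate 1 is in doubt, because its header gives another, so the check and the block rest on the labels. With the replicate block 4 of the 8 genes were called, Syp being lost (log2 fold change 0.75, adjusted p = 0.058), and 2938 genes in all, and with block and offsets Vamp1 was lost (0.69, adjusted p = 0.102).

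Small differences changed sign as libraries were left out. The log2 fold change of Stx1a ran from -0.22 to 0.12 and that of Syt1 from -0.26 to 0.0088, the Slc17a7 to Slc17a6 ratio from -0.056 to 0.16, and Snap25 against the neuron markers from -0.082 to 0.12. Without the neurofilament genes among the markers, Syp was 0.085 higher in Kir2.1-OE relative to them in place of -0.18. With the median transcript the levels per kilobase over all 6 pools were 1742 for Snap25, 1544 for Vamp1, 5871 for Vamp2, 78.5 for Stx1a, 979 for Syt1, 224 for Syt2 and 6360 for Syp, against 755, 564, 2444, 50.1, 668, 62.9 and 1037 with the longest. The 83 to 132 reads of Stx1a limit the precision of its change.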

Other observations

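Rest, which encodes the repressor that binds the RE1 element and keeps neuronal genes silent in other cells, had 1330, 1151 and 1053 normalized counts in the 3 Kir2.1-OE libraries and 461.5, 493.4 and 418.3 in the 3 controls, in the order of their replicate numbers. The groups lay far apart, with a log2 fold change of 1.36 (standard error 0.111, edgeR adjusted p = 0.00012), and 0.84 with the length and GC offsets (adjusted p = 0.000762). Rest was thus higher in the same pools in which Syn1, Snap25 and Syt2 were higher, but its order over the Kir2.1-OE pools was not theirs, since replicate 1 was the highest and replicate 3 the lowest. The bulk values do not show whether the same cells held these transcripts.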
